A study of Mus musculus with 9 samples.

Results

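The genes described here are the fibrillar, basement membrane and other collagens of the fracture callus, apart from 9 chains of bone and cartilage matrix. They were taken as every gene whose symbol is Col, a type number, a and a chain number, leaving out Col1a1, Col1a2, Col2a1, Col9a1, Col9a2, Col9a3, Col10a1, Col11a1 and Col11a2. Such a symbol was held by 44 of the 22054 genes measured, of which 9 were left out and 35 were kept. The kept genes were 6 fibrillar chains, 6 chains each of type IV and type VI collagen, 3 chains of anchoring and network collagens, 6 FACITs, 4 transmembrane collagens, 2 multiplexins, and Col26a1 and Col28a1. The study set an inhibitor of STING, H-151, against an activator, SR-717, to ask how the cGAS-STING pathway acts in early fracture healing. All 9 libraries came from male wild-type C57BL/6J mice, aged 7 weeks in the labels, whose femur had been broken and pinned. The 3 H-151 samples had received 750 nmol of H-151, the 3 SR-717 samples 30 mg/kg of SR-717 and the 3 control samples PBS, each as 200 μl injected daily into the peritoneum over 7 days. Callus was sequenced on day 7, although the labels call the tissue bone and their extraction text speaks of cell lines. Both agents reach the whole animal by this route, and the labels do not say whether a library is 1 mouse or a pool. The p-values given below measure the spread between these libraries, which may be technical in part.

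Collagen chains assemble as trimers that wind into a helix, and the types differ in what that helix builds. Fibrillar collagens form the banded fibers that carry tension, with type III prominent in granulation tissue and in young callus, and type V setting fiber diameter from inside. Type IV collagen is the mesh of every basement membrane, the sheet under endothelium and around muscle, fat and nerve fibers, and type VI forms beaded filaments around cells. FACITs sit on the surface of fibers, transmembrane collagens span the cell membrane, and multiplexins join basement membranes to the stroma beneath them.

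Libraries held 16987398 to 23272480 counts, and the 35 collagens took between 1.99 and 3.34% of them. On the first principal component, which held 46.6% of the variance of all genes, SR-717 replicate 1 lay at 100.6 and PBS replicate 1 at 38.8, with the other 7 libraries between -28.8 and -4. These 2 libraries also had the lowest summed level of 5 cartilage markers, at 187 and 536 CPM against 1298 to 3238 CPM elsewhere. CPM here are counts scaled by edgeR to an equal library size, with TMM factors. All 5 bone markers and all 5 cartilage markers were detected in every library. Values without SR-717 replicate 1 are given below for the members' medians and wherever its removal moved a named log2 fold change of a collagen or of a gene on the assembly and basement membrane lists, if at least 0.3 in size, by over 1.5 times.

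Col3a1, the chain of type III collagen, stood above all other members in every library and supplied 37.4 to 54.1% of their summed TPM. TPM is the authors' value scaled for gene length and library, and is the scale used wherever genes are compared with each other. Behind Col3a1, with a mean of 4757 TPM over 9 libraries, came Col5a1 at 868, Col6a1 at 801, Col6a2 at 794, Col12a1 at 789.6 TPM and Col5a2 at 665 TPM. These 6 genes supplied 78.3 to 85.4% of the members' TPM. In mean level 12 members reached 100 TPM, 8 lay between 10 and 100 TPM, 6 between 1 and 10 TPM and 9 under 1 TPM. The members summed to 6906.5 to 13130.1 TPM a library, which was 25.3 to 45.2% of the TPM of all 44 collagens.

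The order of the members by mean TPM was loose between neighbors. Of 34 pairs of neighbors in that order, 5 kept it in all 9 libraries: Col3a1 above Col5a1, Col5a2 above Col4a1, Col6a3 above Col4a2, Col13a1 above Col24a1 and Col4a5 above Col20a1. Col6a1 and Col6a2 exchanged places in 4 of 9 libraries, and Col22a1, Col27a1 and Col13a1 had means of 36.9, 36.5 and 36.4 TPM. By the filter on low counts 31 members could be tested in all 3 comparisons, Col28a1 in 2 of them, and Col4a3, Col4a6 and Col19a1 in none. A member that passes through the group in which it is high is favored by such a filter, so counts below are of the members tested and not of all 35.

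**Figure D1:**
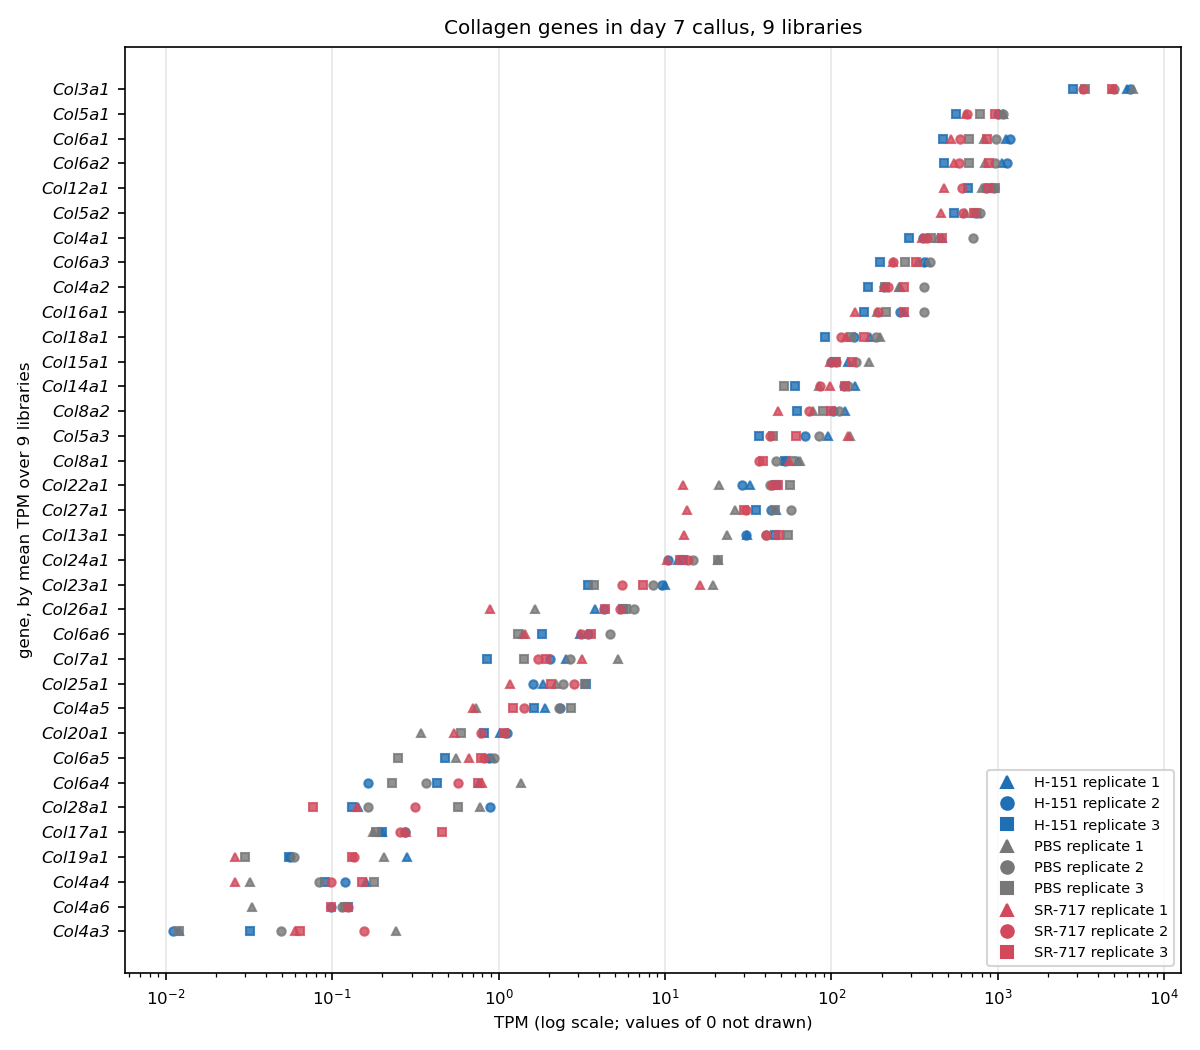
TPM on a log axis for each of the 35 collagens in the 9 libraries, ordered by mean TPM, with color for the treatment group and marker shape for the replicate number. Col3a1 lies above all others in every library, the 3 groups are intermixed within nearly every gene, and 9 genes have means under 1 TPM, with values of 0 not drawn.

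Among fibrillar chains Col3a1 stood at 5970.3, 6179 and 2823 TPM in the H-151 libraries, 6485, 4973 and 3349.6 TPM in the PBS libraries and 4939, 3256 and 4839 TPM in the SR-717 libraries, given throughout in the order of replicate number. The groups overlapped across most of their range, and the lowest library was H-151 replicate 3. Col5a1, the chain common to most type V collagen, stood at 1077, 995 and 559.6 TPM in the H-151 libraries, 1074, 1075 and 778 TPM in the PBS libraries and 641, 648 and 963 TPM in the SR-717 libraries. Its partner chain Col5a2 stood at 746, 741 and 548 TPM in the H-151 libraries, 638, 778 and 742 TPM in the PBS libraries and 455, 617 and 716 TPM in the SR-717 libraries, a narrower range than that of Col5a1. The third type V chain, Col5a3, ranged from 36.9 to 129 TPM. Col24a1, a fibrillar chain of developing bone, ranged from 10.3 to 20.8 TPM.

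Col27a1, a fibrillar chain known from cartilage, stood at 46.3, 43.3 and 35.2 TPM in the H-151 libraries, 26.2, 57.4 and 45.8 TPM in the PBS libraries and 13.5, 30.6 and 30.0 TPM in the SR-717 libraries. All 3 SR-717 libraries lay below all 3 H-151 libraries, and PBS replicate 1 lay below 2 of the SR-717 libraries. The gene spans chr4:63214004-63334991 on the plus strand of GRCm38, and Col3a1 spans chr1:45311538-45349706 on the plus strand. The RefSeq start of Col3a1 is that of the span, while that of Col27a1 lies 1408 bases inside it, so its window falls within the annotated gene but holds no annotated exon. The 250 bases before the RefSeq start of each, on GRCm38, are shown because Col3a1 was the highest member and Col27a1 the member with the smallest p between SR-717 and H-151. Capitals mark matches on either strand to 3 short motifs. These were the letters TATAAA, named after the TATA box, the letters CCAAT of the box of that name, and the letters GGGCGG of a GC box.
Col3a1, chr1:45311288-45311537, plus strand: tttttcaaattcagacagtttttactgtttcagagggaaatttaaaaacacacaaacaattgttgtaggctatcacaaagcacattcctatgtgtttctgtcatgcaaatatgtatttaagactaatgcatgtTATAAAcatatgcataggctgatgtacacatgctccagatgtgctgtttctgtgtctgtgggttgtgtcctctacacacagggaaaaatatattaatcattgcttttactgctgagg
Col27a1, chr4:63215162-63215411, plus strand: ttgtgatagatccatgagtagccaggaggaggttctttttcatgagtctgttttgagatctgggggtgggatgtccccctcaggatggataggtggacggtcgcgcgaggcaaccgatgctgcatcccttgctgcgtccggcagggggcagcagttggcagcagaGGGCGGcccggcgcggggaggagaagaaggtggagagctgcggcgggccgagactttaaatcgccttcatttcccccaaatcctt
The Col3a1 window held 1 match to the TATA letters and 35.2% G or C. The Col27a1 window held 1 match to the GC box letters and 59.6% G or C. RefSeq windows matched 29 of the 35 members. Of the 29, 3 held the TATA letters before a start (Col3a1, Col13a1 and Col17a1), which was 10.3% against 14.3% of 27025 genes. The letters of the CCAAT box were held by 10 of 29, or 34.5% against 37.5% of all genes, and the GC box letters by 17 of 29, or 58.6% against 35.4%. Per window the shares over all 32851 windows were 12.4, 33.8 and 32.7%, in the same order. No match of these motifs overlapped another in the windows shown, and a match describes letters only.

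Type IV collagen was dominated by Col4a1 and Col4a2, the chains of nearly every basement membrane. Col4a1 stood at 462, 355 and 291 TPM in the H-151 libraries, 438, 705 and 397 TPM in the PBS libraries and 350.0, 375 and 463 TPM in the SR-717 libraries. Col4a2 stood at 259, 206 and 165 TPM in the H-151 libraries, 253, 362 and 211 TPM in the PBS libraries and 207, 217 and 272 TPM in the SR-717 libraries. In both genes PBS replicate 2 was the highest library and H-151 replicate 3 the lowest. The genes lie head to head on chromosome 8, Col4a1 at chr8:11198423-11312826 on the minus strand and Col4a2 at chr8:11312805-11449287 on the plus strand, so that their first 22 bases overlap. The overlap is shown in capitals within 30 bases of GRCm38 because the levels of this pair moved together from library to library.
Col4a1 and Col4a2 starts, chr8:11312801-11312830, plus strand: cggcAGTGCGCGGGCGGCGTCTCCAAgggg
The other type IV genes also lie in pairs, Col4a3 and Col4a4 with 71 bases between their starts on chromosome 1 and Col4a5 and Col4a6 with 1308 bases between them on chromosome X.

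The chains of specialized basement membranes, such as those of kidney and skin, were scarce. Col4a5 had 33 to 154 counts a library, and the others were near the limit of detection. Col4a5 stood at 1.89, 2.34 and 1.62 TPM in the H-151 libraries, 0.731, 2.31 and 2.71 TPM in the PBS libraries and 0.699, 1.42 and 1.23 TPM in the SR-717 libraries. PBS replicate 1 and SR-717 replicate 1 lay below the other 7 libraries. Col4a4 had 3 to 18 counts a library and Col4a3 1 to 16. Col4a6 had 0 counts in H-151 replicate 1 and in SR-717 replicate 1, where a count of 0 allows up to 3, and at most 10 elsewhere.

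Type VI collagen was the second most abundant class after the fibrillar chains, at 14.2 to 20.6% of the members' TPM. Col6a1 stood at 1113, 1185 and 466 TPM in the H-151 libraries, 826, 969 and 673 TPM in the PBS libraries and 522, 590.5 and 864 TPM in the SR-717 libraries. Col6a2 stood at 1061, 1129 and 475 TPM in the H-151 libraries, 839, 960.1 and 666 TPM in the PBS libraries and 541, 586 and 888 TPM in the SR-717 libraries. H-151 held both the highest library, replicate 2, and the lowest, replicate 3, for these chains. Col6a3, the long chain that joins them, stood at 376, 357 and 195 TPM in the H-151 libraries, 332, 393 and 275 TPM in the PBS libraries and 235, 233 and 323 TPM in the SR-717 libraries. The 3 chains that can replace Col6a3 were scarce, with ranges of 0.165 to 1.36 TPM for Col6a4, 0.248 to 0.941 for Col6a5 and 1.31 to 4.68 TPM for Col6a6.

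Of the anchoring and network collagens Col8a2, a chain of the lattice around vessels, stood at 119.8, 102 and 61.8 TPM in the H-151 libraries, 77.2, 111 and 88.7 TPM in the PBS libraries and 47.6, 72.8 and 98.9 TPM in the SR-717 libraries. Its partner Col8a1 stood at 63.2, 52.6 and 52.9 TPM in the H-151 libraries, 64.6, 46.1 and 57.7 TPM in the PBS libraries and 55.6, 36.8 and 38.8 TPM in the SR-717 libraries. SR-717 replicate 1 was the lowest library for Col8a2 and above the group's other libraries for Col8a1. Col7a1, the anchoring fibril chain best known from skin, ranged from 0.854 TPM in H-151 replicate 3 to 5.21 TPM in PBS replicate 1.

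Col12a1, a FACIT of tendon, periosteum and healing tissue, stood at 930.0, 848 and 661 TPM in the H-151 libraries, 803, 949 and 962 TPM in the PBS libraries and 477, 609 and 866 TPM in the SR-717 libraries. Its lowest libraries were SR-717 replicates 1 and 2. Col16a1 followed at 138 to 359.8 TPM and Col14a1 at 52.0 to 139 TPM. Col22a1, a chain of tissue junctions such as that of muscle and tendon, ranged from 12.9 to 56.4 TPM and Col20a1 from 0.340 to 1.12 TPM. Col19a1 held 1 to 12 counts a library and was not tested.

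Among transmembrane collagens Col13a1, found at cell adhesions and nerve-muscle junctions, stood at 30.9, 30.5 and 45.9 TPM in the H-151 libraries, 23.5, 40.6 and 54.7 TPM in the PBS libraries and 12.9, 40.5 and 48.2 TPM in the SR-717 libraries. SR-717 replicate 1 was again the lowest and PBS replicate 1 the next. Col23a1 ranged from 3.43 to 19.5 TPM and Col25a1 from 1.17 to 3.36 TPM. Col17a1, a hemidesmosome collagen of epithelium, was at 0.175 to 0.458 TPM, which was 9 to 23 counts a library. The defining keratinocyte markers Krt5, Krt14, Krt1 and Dsg3 were each at 0 in at least 1 library, and the 6 keratinocyte markers summed to 3.71 to 10.1 CPM.

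Of the multiplexins Col18a1, the source of endostatin, stood at 171, 136 and 91.4 TPM in the H-151 libraries, 197, 184 and 131 TPM in the PBS libraries and 123, 114 and 158 TPM in the SR-717 libraries. Col15a1, its relative around muscle fibers and capillaries, stood at 125, 99.7 and 105 TPM in the H-151 libraries, 169, 141 and 107 TPM in the PBS libraries and 98.2, 106 and 133 TPM in the SR-717 libraries. PBS replicates 1 and 2 were the highest libraries for both genes. Col26a1 stood at 3.78, 4.29 and 5.60 TPM in the H-151 libraries, 1.67, 6.50 and 5.85 TPM in the PBS libraries and 0.885, 5.38 and 4.37 TPM in the SR-717 libraries, with SR-717 replicate 1 and PBS replicate 1 below the others. Col28a1, known from peripheral nerve, had 3 to 30 counts a library.

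Some chains that build 1 protein together kept nearly fixed proportions. The TPM of Col6a1 over that of Col6a2 lay between 0.965 and 1.05 in all 9 libraries. The SD of its log2 was 0.04 while the chains themselves had SDs of 0.48 and 0.45. For Col4a1 over Col4a2 the ratio lay between 1.69 and 1.95, with an SD of 0.07 against 0.36 and 0.32 for the chains. Col5a1 over Col5a2 was looser, at 1.02 to 1.68, and Col6a3 over Col6a1 lay at 0.301 to 0.450. Col3a1 over Col5a1, partners in mixed fibers, lay at 4.30 to 7.70. In 2 of the 7 ratios formed the ratio varied more than either chain. For type VIII collagen, Col8a1 over Col8a2 ranged from 0.392 in SR-717 replicate 3 to 1.17 in SR-717 replicate 1. Its SD of 0.53 was above those of Col8a1 (0.29) and Col8a2 (0.43). The other was Col4a3 over Col4a4, which ranged from 0.0674 to 7.59 on as little as 1 count, with an SD of 2.38 against 1.62 and 0.99.

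No ratio was shown to differ between groups. Exact permutation tests, two-sided, were run on 7 ratios in 3 comparisons, which made 21 tests. Their smallest p was 0.1, the smallest that 3 libraries against 3 allow, and the smallest Benjamini-Hochberg adjusted value was 0.764. For Col4a1 over Col4a2 the mean log2 ratio was 0.77 ± 0.02 (SD, n = 3) with SR-717 and 0.89 ± 0.09 (SD, n = 3) with PBS, at p = 0.1 in the exact permutation test. The ratio of Col4a3 to Col4a4 was among the 21 but rests on single counts, and that of Col4a5 to Col4a6 was not formed because Col4a6 was at 0 in places.

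**Figure D2:**
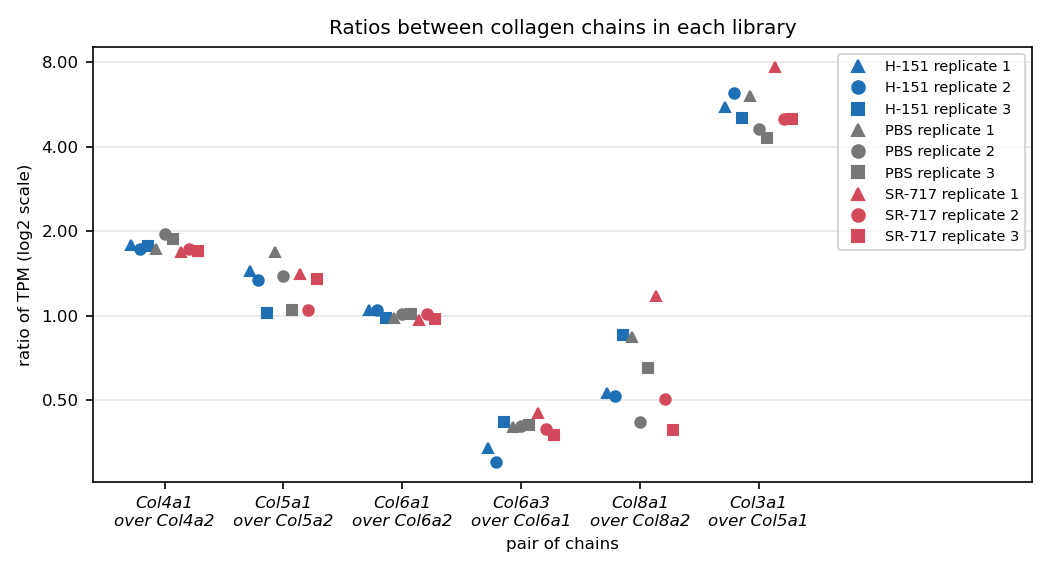
Ratio of the TPM of 2 collagen chains on a log2 axis, 1 point a library, with color for the treatment group and marker shape for the replicate number. Col6a1 over Col6a2 stays between 0.965 and 1.05 and Col4a1 over Col4a2 between 1.69 and 1.95, while Col8a1 over Col8a2 spreads from 0.392 to 1.17.

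The comparison of SR-717 with H-151 asks whether collagens differ between activation and inhibition of STING. None of the 31 collagens tested passed the thresholds, which were an unadjusted p under 0.05 with at least a 1.5-fold change in edgeR's quasi-likelihood test. Over all 14151 genes tested, 0.367% were called higher and 0.389% lower, or 52 and 55 genes. At a Benjamini-Hochberg adjusted p under 0.05 edgeR called 0 genes, against 146 (1.03%) at an unadjusted p under 0.05 and 1 by DESeq2's adjusted p, and no collagen had an unadjusted p under 0.05. The members' median log2 fold change was -0.07, with 14 above and 17 below 0, and that of all genes tested was 0.02, with 53.4% above 0.

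Col27a1 came nearest in this comparison. Its CPM were 150.1, 146 and 154 CPM with H-151 and 49.5, 114 and 109 CPM with SR-717. Every SR-717 library lay below every H-151 library, and the log2 fold change was -0.73 (SE 0.32, n = 3 and 3), with an adjusted p of 0.996 in edgeR. Col4a5 had 5.05, 6.71 and 4.95 CPM with H-151 and 1.86, 3.99 and 4.03 CPM with SR-717, again without overlap, and a log2 fold change of -0.77 (SE 0.35). Of the members tested, Col17a1 alone was higher in CPM in every SR-717 library. Its log2 fold change was 0.60 (SE 0.35) on 11 to 23 counts a library, and 0.37 without SR-717 replicate 3. SR-717 replicate 2, at 0.798 CPM, lay close to H-151 replicate 2 at 0.789 CPM. In TPM these libraries stood at 0.257 and 0.273, so the groups overlapped. The 4 keratinocyte markers tested were all positive in this comparison, with a median of 1.01 and 0 past the thresholds, from Trp63 at 0.23 (SE 0.56) to Krt5 at 2.57 (SE 1.29). In SR-717 against PBS only 2 of the 6 listed markers were tested, with 1 above 0 (0.69) and 1 below (-0.65). The 6 markers summed to 6.77 to 10.1 CPM with SR-717 and 4.04 to 7.50 CPM with H-151, and their part in the Col17a1 values was not tested. Col4a3, too scarce to be tested, had 0.31, 0.751 and 0.292 CPM with SR-717 and 0.0491, 0.0493 and 0.167 CPM with H-151 and was likewise higher in every SR-717 library. Without overlap in CPM, 2.67% of all genes tested were higher and 2.51% lower in SR-717, against 1 and 2 of the 31 collagens, or 3.23 and 6.45%.

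SR-717 replicate 1 weighed on these values. Without it the log2 fold change of Col27a1 was -0.43 (SE 0.11), under 1.5-fold, and that of Col4a5 -0.48, and the members' median was 0.02. DESeq2's Wald test called Col27a1 lower in SR-717 (log2 fold change -0.72, unadjusted p of 0.0397, adjusted p of 0.9995 in DESeq2), where 1.04% of genes were called higher and 0.438% lower. The 5 cartilage markers all had negative log2 fold changes in SR-717 against H-151, with a median of -0.92 and 0 past the thresholds, and summed to 187 to 1989 CPM against 1298 to 2738 CPM. The part of cartilage content in the values of Col27a1 was not tested. In bulk RNA, fewer cells of a type and less RNA in each of them cannot be told apart.

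**Figure D3:**
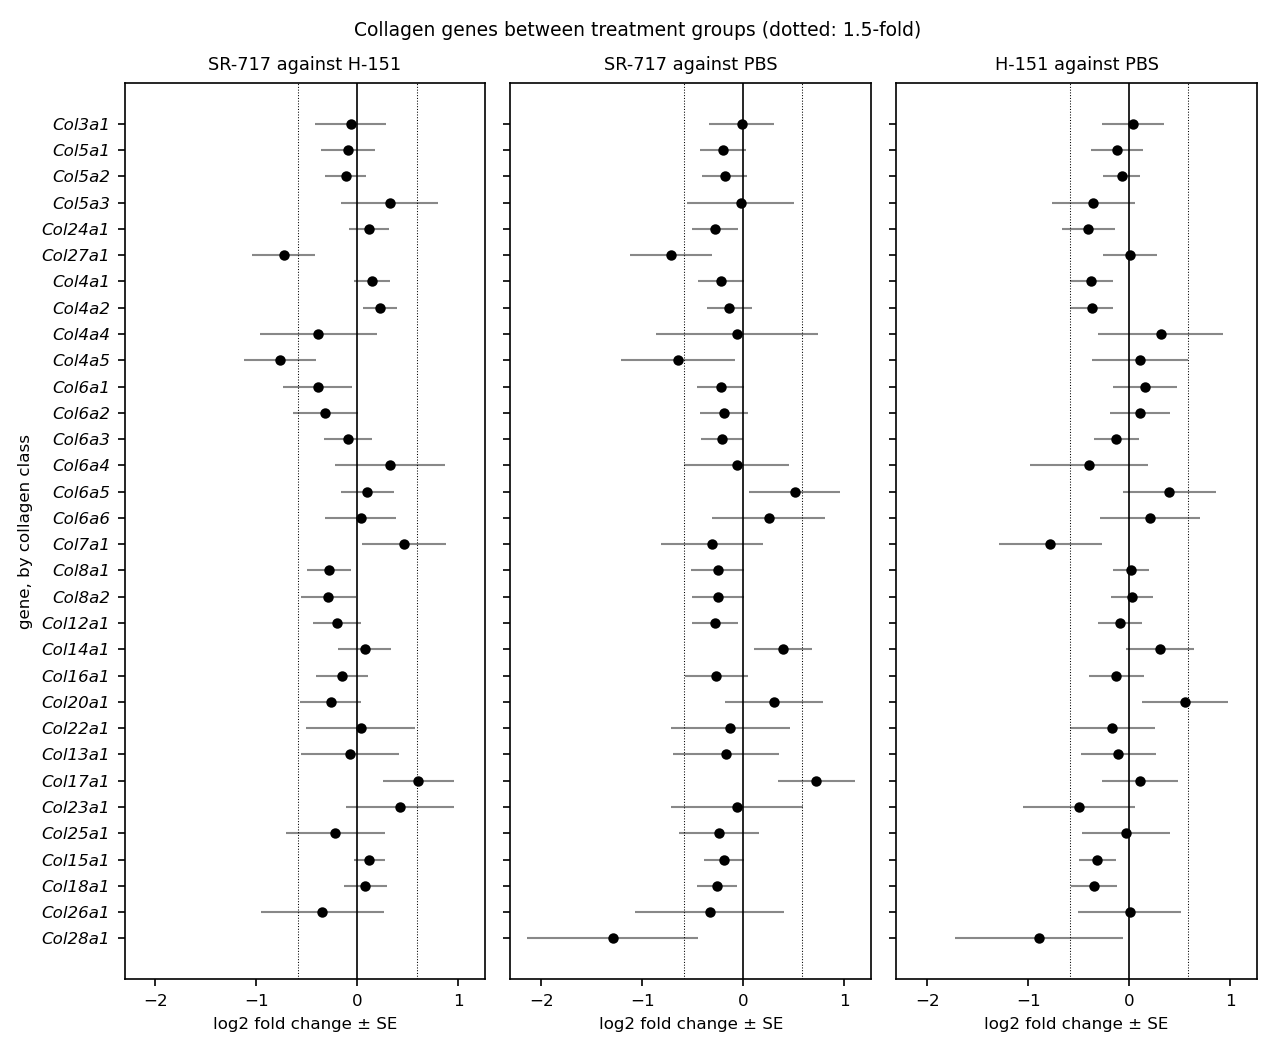
Log2 fold change of each tested collagen with its SE (edgeR, 3 libraries against 3) in the 3 comparisons, with dotted lines at 1.5-fold in each direction. No gene passed the thresholds, and most points lie left of 0 for SR-717 against PBS.

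Against PBS the SR-717 group again held no collagen past the thresholds, of 32 tested, where 0.270% of 14070 genes were called higher and 0.249% lower. Both comparisons with SR-717 share its libraries, and both comparisons with PBS share the controls, so none of the 3 is independent of another. edgeR called 0 genes at an adjusted p under 0.05 and DESeq2 also 0, against 97 (0.689%) at an unadjusted p under 0.05 in edgeR. Here 5 collagens lay above 0 and 27 below, with a median log2 fold change of -0.20, while the median of all genes was 0.01 with 52.3% above 0. Without SR-717 replicate 1 the split was 10 above and 22 below and the median -0.14. With PBS replicate 1 left out as well it was 7 and 25, with a median of -0.11.

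Neutrophil markers stood on the other side. All 5 had positive log2 fold changes in SR-717 against PBS, with a median of 1.37, a highest value of 1.76 and 0 past the thresholds. They summed to 8349.6 CPM in SR-717 replicate 1, 1999.4 in replicate 2 and 1311 CPM in replicate 3, against 322 to 2021 CPM with PBS. All 5 were also above 0 in SR-717 against H-151 (median 0.67) and in H-151 against PBS (median 0.69). There the collagens split 14 above and 17 below 0, and 14 above and 18 below. The part of neutrophil content in the collagen values was not tested.

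The 27 included all 6 fibrillar chains, with log2 fold changes from -0.72 to -0.02, all 4 type IV chains tested, from -0.65 to -0.07, and all 3 anchoring and network chains, from -0.31 to -0.25. Both multiplexins were on the same side, Col18a1 at -0.26 (SE 0.20) and Col15a1 at -0.19 (SE 0.20). Col3a1, the most abundant, was at -0.02 (SE 0.32), and above 0 without PBS replicate 1 (0.14) or SR-717 replicate 2 (0.16). On the other side stood Col17a1 at 0.72 (SE 0.38), Col6a5 at 0.51 (SE 0.45), Col14a1 at 0.39 (SE 0.29), Col20a1 at 0.30 (SE 0.48) and Col6a6 at 0.25 (SE 0.56). Without PBS replicate 1 Col20a1 was at -0.019 and Col6a6 at -0.024, against 0.50 and 0.54 without SR-717 replicate 1. In CPM, Col17a1 was higher in every SR-717 library than in any PBS library, as were 1.49% of genes. No collagen was lower in CPM in every SR-717 library, as were 2.26% of genes. In TPM, Col17a1 overlapped, at 0.257 in SR-717 replicate 2 and 0.275 in PBS replicate 2. Col24a1 lay lower in TPM, at 10.3 to 13.8 with SR-717 and 14.7 to 20.8 with PBS. Col4a3, not tested, was also higher in CPM in every SR-717 library, at 0.31, 0.751 and 0.292 against 0.171, 0.211 and 0.0562 with PBS. In TPM its highest library was PBS replicate 1, at 0.243. For Col17a1 the CPM were 0.93, 0.798 and 1.34 CPM with SR-717 and 0.514, 0.761 and 0.562 CPM with PBS. Col28a1 had the most negative value, -1.29 (SE 0.85), on 3 to 30 counts a library, and was at -0.81 without PBS replicate 1. Col4a5, at -0.65, was at -0.35 without SR-717 replicate 1 and at -1.04 without PBS replicate 1.

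Of the members with a mean of at least 10 TPM Col27a1 had the most negative value. Its CPM in PBS were 90.1, 186 and 173, against 49.5, 114 and 109 with SR-717, and the log2 fold change was -0.72 (SE 0.41, n = 3 and 3, adjusted p of 0.9999 in edgeR). The ranges overlapped through PBS replicate 1. Deviations of equal replicate number correlated at 0.65, 0.341 and 0.139 over all genes in this comparison, against up to 0.342 for unequal numbers. Within each pair of equal number Col27a1 was lower with SR-717, by log2 differences of -0.86, -0.70 and -0.67. In all, 6 of 31 collagens were lower in all 3 pairs, or 19.4% against 12.4% of the 13949 genes tested throughout. Higher in all 3 pairs was 1 collagen, or 3.23% against 10.9%. In the edgeR fit with the replicate number as a block Col27a1 passed the thresholds and fell by 0.74 on the log2 scale (SE 0.14, unadjusted p of 0.00358, adjusted p of 0.9991), where 0.718% of genes were called lower and 2.43% higher. It was the only collagen called in that fit, with 0 at an adjusted p under 0.05.

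With both SR-717 replicate 1 and PBS replicate 1 left out, a setting chosen after seeing the data, Col27a1 (log2 fold change -0.67, unadjusted p of 0.00916 in edgeR) and Col4a5 (-0.74) passed the thresholds, where 0.579% of genes were called higher and 0.254% lower. Without SR-717 replicate 1 alone Col27a1 was at -0.41 and did not pass. Summed cartilage markers in pairs of equal number were 187 CPM in SR-717 against 536 in PBS, 1989 against 3238 and 1521 against 2145 CPM, lower in SR-717 each time. All 5 markers had negative values, with a median of -0.86 and 0 past the thresholds, and their part in the Col27a1 values was not tested.

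H-151 against PBS asks what inhibition alone does. Again 0 of 32 collagens passed, where 0.263% of 14085 genes were called higher and 0.163% lower, with 0 genes at an adjusted p under 0.05 in edgeR and in DESeq2 and 91 (0.646%) at an unadjusted p under 0.05. The members divided into 14 above and 18 below 0, with a median log2 fold change of -0.08. For all genes the median was -0.02, with 44.2% above 0. For no collagen did the groups lie apart in CPM, as they did for 1.56% of genes higher and 2.31% lower with H-151. In TPM those of Col24a1 did, at 10.4 to 12.8 with H-151 and 14.7 to 20.8 with PBS. The 3 with the smallest p were chains of basement membrane zones. Col4a1 had 1440.1, 1210.0 and 1149 CPM with H-151 and 1493, 2019 and 1419 CPM with PBS, a log2 fold change of -0.38 (SE 0.21). Col4a2 had 814, 700.0 and 640.3 CPM with H-151 and 855, 1174 and 763 CPM with PBS and -0.37 (SE 0.22). Without PBS replicate 2, the highest library of both, Col4a1 was at -0.19 and Col4a2 at -0.16. Col15a1 had 263, 224 and 221 CPM with H-151 and 326, 325 and 232 CPM with PBS and -0.32 (SE 0.18). In each gene H-151 replicate 1 reached into the PBS range, and the adjusted p was 0.9999 in edgeR.

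Col18a1 stood with them at -0.35 (SE 0.22), at -0.22 without PBS replicate 1 and at -0.18 without H-151 replicate 3. Endothelial markers, whose cells lie on such membranes, summed to 917 to 1038 CPM with H-151 and 973 to 1082 CPM with PBS, and all 6 had negative values with a median of -0.12. Pericyte and smooth muscle markers summed to 684 to 884 against 836 to 1054 CPM, with 4 of 5 negative and a median of -0.13. In SR-717 against PBS and against H-151 4 of 5 were negative as well, with medians of -0.28 and -0.13. The part of vessel content in the values of type IV chains was not tested.

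Libraries of equal number deviated together here as well. In pairs by number 7 of 31 collagens were lower with H-151 every time, namely Col4a1, Col4a2, Col5a3, Col7a1, Col15a1, Col18a1 and Col24a1, and 3 were higher every time, Col14a1, Col17a1 and Col20a1. These were 22.6 and 9.68% of the collagens, against 11.6 and 9.96% of the 13949 genes tested throughout. In the edgeR fit with the replicate number as a block Col7a1 passed the thresholds and fell by 0.70 on the log2 scale (SE 0.22, unadjusted p of 0.0198), where 0.433% of genes were called lower and 1.43% higher. Its CPM were 11.3, 9.96 and 4.72 CPM with H-151 and 25.1, 12.4 and 7.31 CPM with PBS, and the log2 fold change without the block was -0.78 (SE 0.51). Without PBS replicate 1 that value was -0.18, so it rests largely on that library. Col24a1 (-0.40, unadjusted p of 0.016) and Col18a1 (-0.36, unadjusted p of 0.0348) had small p in the blocked edgeR fit but changed by less than 1.5-fold. No collagen passed at an adjusted p under 0.05 with the block.

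**Figure D4:**
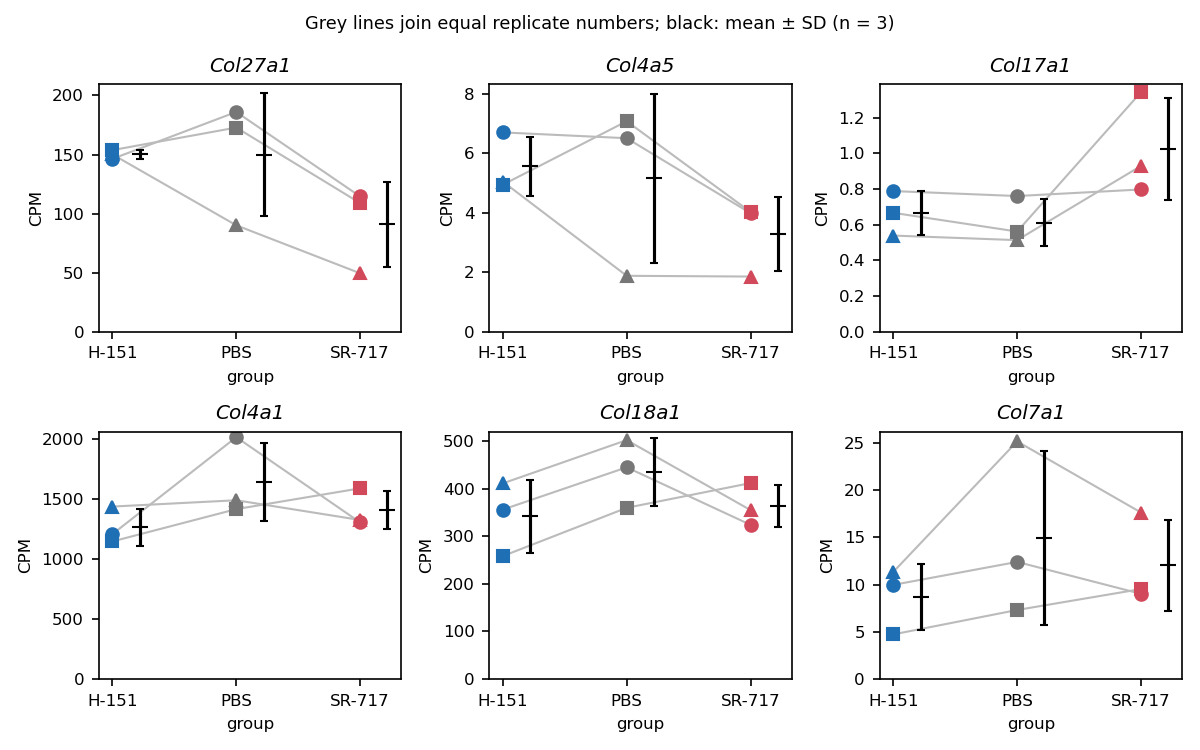
CPM of 6 collagens by group, with markers for the replicate number, grey lines joining libraries of equal number and black bars for the mean ± SD of 3 libraries. Col27a1 lies lower with SR-717 than with PBS in all 3 pairs, Col18a1, Col4a1 and Col7a1 lie lower with H-151 than with PBS in all 3, and Col17a1 reaches at most 1.34 CPM.

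The spread between libraries of 1 group was larger than that between group means for 30 of the 31 collagens tested throughout, as SDs of log2 CPM. The same held for 95.9% of the 13949 genes tested throughout. The exception, Col17a1, had 0.29 within groups and 0.35 between group means on few counts. In Col3a1 the values were 0.39 and 0.02, in Col6a1 0.41 and 0.17, in Col22a1 0.84 and 0.12 and in Col27a1 0.51 and 0.45.

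Single libraries held many of the extreme values. SR-717 replicate 1 held the lowest TPM of 13 of the 31 collagens and H-151 replicate 3 that of 11. The lowest library can differ in CPM, as for Col24a1, and the share over all genes was not counted. Of the 12 members with a mean of at least 100 TPM the lowest value lay in H-151 replicate 3 for 8 and in SR-717 replicate 1 for 4. In CPM, SR-717 replicate 1 and PBS replicate 1 lay below all other libraries for 7 of 31, namely Col27a1, Col4a4, Col4a5, Col20a1, Col22a1, Col13a1 and Col26a1. They lay above all others for 5, Col5a3, Col6a4, Col7a1, Col8a1 and Col23a1. Over 13949 genes tested throughout, 14.5% and 14.6% showed these patterns, against 22.6 and 16.1% of the collagens.

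Replicate 3 of H-151 and of PBS formed another such pair. They lay below the other 7 libraries for Col6a5, Col7a1, Col14a1 and Col23a1 and above them for Col24a1, Col22a1, Col13a1, Col25a1 and Col26a1, as did 8.39 and 8.42% of all genes. These 2 libraries had the highest summed bone markers, 5560 and 6450 CPM, and the lowest summed neutrophil markers, 677 and 322 CPM. Bone markers summed to 1284 to 4655 CPM and neutrophil markers to 1300 to 8349.6 CPM in the other libraries. Their part in these collagen levels was not tested.

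**Figure D5:**
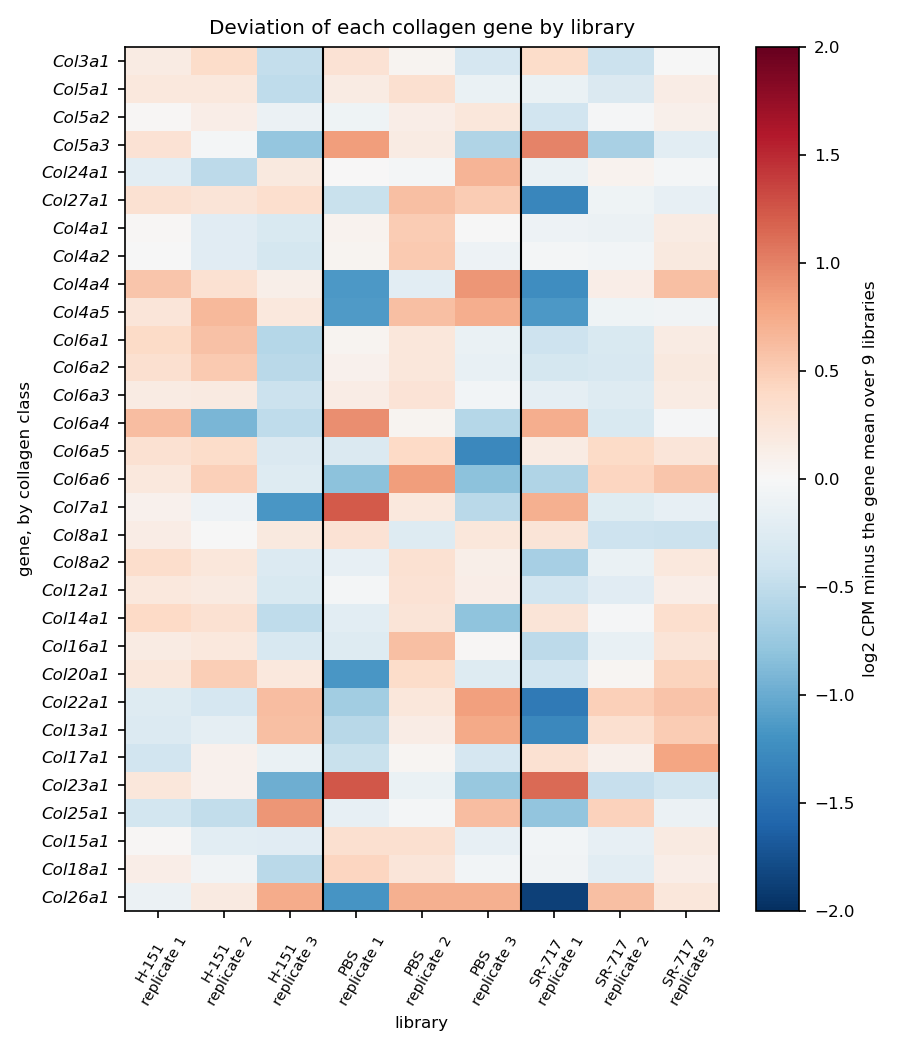
Log2 CPM of the 31 collagens tested in all comparisons, as the difference from each gene's mean over 9 libraries, with genes in order of class and libraries in order of group. The columns of PBS replicate 1 and SR-717 replicate 1 resemble each other, low for Col26a1, Col22a1 and Col13a1 and high for Col5a3, Col7a1 and Col23a1, while no block of color follows a whole group.

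Genes that modify, fold, cleave and cross-link collagens were read from a list of 32, of which 31 were tested. None passed the thresholds in any comparison. In SR-717 against PBS all 31 had negative log2 fold changes, with a median of -0.26 beside 0.01 for all genes. Without SR-717 replicate 1 these were 28 of 31 and -0.16. Loxl2, a lysyl oxidase that cross-links fibers and type IV mesh, was at -0.39 (SE 0.18) and Adamts3, a procollagen N-proteinase, at -0.38 (SE 0.20). In the fit with the replicate block Pcolce2, an enhancer of procollagen C-proteinase, and Loxl4, another lysyl oxidase, passed the thresholds and fell by 0.76 and 0.83 on the log2 scale. In that fit 0.718% of all genes were called lower. Without the block they were at -0.55 (SE 0.84) and -0.71 (SE 0.71), and without SR-717 replicate 1 at -0.05 and -0.27. With both SR-717 replicate 1 and PBS replicate 1 left out they were at -0.47 and -0.65, and neither passed. Against H-151, 27 of 31 were negative with a median of -0.16, led by Plod2, a lysyl hydroxylase, at -0.39 (SE 0.20) and Loxl2 at -0.53 (SE 0.29), which was -0.31 without H-151 replicate 2. In H-151 against PBS 25 of 31 were negative with a median of -0.08, and the smallest p belonged to Adamts14 at -0.31 (SE 0.15) and Bmp1, the procollagen C-proteinase, at -0.31 (SE 0.15).

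The 16 basement membrane partners of type IV collagen held a single call, in H-151 against PBS, where 0.163% of all genes tested were called lower. Lama1, a laminin chain of early basement membranes, fell by 2.02 on the log2 scale with H-151 against PBS (SE 0.75, unadjusted p of 0.0321, adjusted p of 0.9999 in edgeR). Its CPM were 1.23, 0.74 and 0.445 CPM with H-151 and 6.80, 2.03 and 1.07 CPM with PBS, and the groups overlapped. The call was lost without PBS replicate 1 (-0.94), which held most of the PBS signal, without H-151 replicate 2 (-1.96) or replicate 3 (-1.73), and with all 9 libraries in 1 fit (-2.02). SR-717 replicate 1 also held 7.65 CPM of Lama1. With H-151, 15 of 16 partners had negative values with a median of -0.16, next among them Nid2, a nidogen that links laminin to type IV collagen, at -0.42 (SE 0.22), or -0.26 without PBS replicate 1. Lama2, the laminin chain of muscle, was the partner above 0, at 0.51 (SE 0.35). It passed the thresholds with the replicate block, where it rose by 0.63 and 1.43% of all genes were called higher. It also passed without PBS replicate 2, where it rose by 1.06 and 482 of 14229 genes were called higher.

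In SR-717 against PBS 7 partners were above and 9 below 0, with a median of -0.06, and the smallest p belonged to Pxdn, the peroxidase that cross-links type IV collagen, at -0.30 (SE 0.21) and Sparc at -0.39 (SE 0.39). Without SR-717 replicate 1 Sparc was at -0.12. Sparc, which binds collagen in the matrix and during secretion, is on both lists. In SR-717 against H-151 10 were above and 6 below 0, with a median of 0.09, and the smallest p belonged to Fbln1, a fibulin, at 0.45 (SE 0.21) and Nid2 at 0.48 (SE 0.26). Without SR-717 replicate 1 these were 0.22 and 0.24. The excluded cartilage and bone collagens, for scale, summed to 11079.7 to 30857 TPM a library, and Col1a1 alone averaged 9939 TPM, above Col3a1.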

How the data were processed

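RNA of 9 callus samples, 3 a group, was sequenced and processed for the authors by a service company. The authors deposited expected counts per gene, not normalized, and TPM, which they scaled for gene length. The submitters' processing notes name the build mm10. The aligner and the counting program are not given in the sources used here, nor whether strand was used, so counts of overlapping or antisense genes, such as the 22 shared bases of Col4a1 and Col4a2, are uncertain. Since 8.91% of these values had decimals, they were rounded to whole numbers. Depth was 16987398 to 23272480 counts a library, and no pair of libraries agreed within sampling noise.

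Differences were tested with edgeR 4.0.16 in R 4.3.3, with its quasi-likelihood F test after filterByExpr (minimum count 10, minimum total 15) and TMM scaling. Each fit held the 6 libraries of a comparison and no covariate. Genes were called at an unadjusted p under 0.05 with at least a 1.5-fold change, and separately at 0.05 after Benjamini-Hochberg adjustment over all genes tested. The study names a DESeq method, so DESeq2 1.42.0 was run as an alternative. The edgeR steps were tested on simulated data. Ratios of chains were taken in TPM and tested by exact permutation over libraries. Level differences of equal-numbered libraries are in log2 CPM.

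Replicate numbers come from the sample labels, which do not say what they stand for. Over all genes the deviations of equal-numbered libraries from their group means correlated at 0.65, 0.341 and 0.139 between SR-717 and PBS. Between H-151 and PBS they correlated at 0.305, 0.485 and 0.503. Libraries of unequal number correlated at -0.557 to 0.342 and at -0.387 to 0.02 in these comparisons. SR-717 replicate 3 correlated more with PBS replicate 2 (0.342) than with PBS replicate 3 (0.139). The fit with the replicate number as a block is given beside the results against PBS where it changed a call. Between SR-717 and H-151 the correlations of equal numbers were 0.342, 0.062 and 0.079, and the numbers were not taken as a pairing.

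Members given in every library were the highest of each class, the chains of each ratio and, in each comparison, the 3 with the smallest p, since fewer than 3 passed. The scarce Col4a3, Col4a4, Col4a6, Col17a1 and Col28a1 were exceptions, given as ranges or for some groups only. Of the list of 32 assembly genes and 16 basement membrane partners those past the thresholds and the 2 with the smallest p were named, and Col7a1, Col18a1, Col24a1, Pcolce2, Loxl4 and Lama2 for their values with the block. Genes named beyond these were chosen after their values were seen. The members and lists were chosen with earlier results of these data known. Positions are from the GENCODE annotation and sequences from RefSeq, both on GRCm38.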

Additional observations from a re-analysis of the deposited data

How the results depend on the processing

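With TMM replaced by DESeq2's size factors every count of called genes and collagens stayed within 1.5 times its value and every median of the collagens within 1 SD. Over all counts and medians and all settings other than leaving out a single library, 87 values stayed within these limits and 25 did not. In SR-717 against H-151 genes past the thresholds numbered 147 higher with DESeq2's Wald test, 123 higher and 100 lower without a filter on low counts, 109 higher with all 9 libraries in 1 fit and 88 higher with the replicate block, and DESeq2 called 1 gene at an adjusted p under 0.05. Collagens called were 1 lower with DESeq2 and 1 lower with the replicate block, Col27a1 in both (-0.82, unadjusted p of 0.0446 in the blocked edgeR fit), and 1 higher without the filter, Col4a3 on 1 to 16 counts. In SR-717 against PBS the counts were 93 higher (DESeq2), 141 higher and 53 lower (no filter), 117 higher and 59 lower (all 9 libraries), 342 higher and 101 lower (replicate block) and 82 higher (both SR-717 replicate 1 and PBS replicate 1 left out, chosen after seeing the data). Collagens lower were 1 with the block and 2 with both libraries left out. In H-151 against PBS they were 39 lower (DESeq2), 89 higher and 38 lower (no filter) and 201 higher and 61 lower (replicate block), with 1 collagen lower in the block. The block, or pairing, changed no other call of a collagen. The cause of these shifts was not tested.

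Leaving out each library in turn gave 19 to 544 genes higher and 36 to 170 lower in SR-717 against H-151, most without SR-717 replicate 3 and SR-717 replicate 2. It gave 60 to 261 higher and 24 to 108 lower in SR-717 against PBS, most without SR-717 replicate 3 and PBS replicate 2, and 30 to 482 higher and 13 to 216 lower in H-151 against PBS, most without PBS replicate 2. Collagens lower ranged from 0 to 1 in every comparison, and collagens higher from 0 to 0, 0 to 1 and 0 to 2. Those called were Col27a1 (SR-717 against H-151, without SR-717 replicate 2), Col6a1 (the same, without H-151 replicate 3), Col14a1 higher and Col28a1 lower (SR-717 against PBS, without PBS replicate 2), Col20a1 and Col6a6 higher (H-151 against PBS, without PBS replicate 2) and Col7a1 lower (without PBS replicate 3). The members' median log2 fold change ranged from -0.18 to 0.02, from -0.31 to -0.14 and from -0.13 to -0.01. Of 36 named fold changes 33 kept their sign in every setting run. The others, all in SR-717 against PBS, were Col3a1 (-0.23 to 0.16 over left-out libraries), Col6a6 (-0.024 to 1.04) and Col20a1 (-0.019 to 0.76), and the first of the medians changed sign too. Chain ratios kept 0 calls at an adjusted p under 0.05 in all settings, a design that cannot go under p = 0.1 in an exact test. Values of the scarce members rest on few counts, 9 to 23 a library in Col17a1 and 3 to 30 in Col28a1.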

Other observations

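Markers of other tissues that carry collagens described above differed between libraries as follows, in summed CPM. Skeletal muscle markers (6 genes), whose fibers are wrapped in type IV and type XV collagen, ranged from 3965 in PBS replicate 3 to 23061 in SR-717 replicate 3, and all 6 had positive log2 fold changes in each comparison with PBS, 0 past the thresholds. Adipocyte markers (5 genes, of which Lep was at 0 in some libraries) ranged from 6.62 in PBS replicate 1 to 78.3 in H-151 replicate 2, and the 4 tested had a median log2 fold change of 1.31 in H-151 against PBS and 0.83 in SR-717 against PBS, with 0 past the thresholds. Schwann cell markers (5 genes) ranged from 25.0 to 83.2 CPM and were all positive in H-151 against PBS, with a median of 0.49 and 0 past the thresholds. Tendon markers (4 genes) ranged from 376 to 798 CPM. In SR-717 against H-151, 3 of them had negative log2 fold changes and 1 a positive one (0.42). Only Tnmd was past the thresholds there, where 0.389% of all genes were called lower. It fell by 0.86 on the log2 scale (SE 0.34, adjusted p of 0.996 in edgeR). That call was lost without SR-717 replicate 1 (-0.57) and, at -0.94 to -0.70, without any 1 of the H-151 libraries or SR-717 replicate 2. Macrophage and osteoclast markers (4 genes) ranged from 4273 to 7672 CPM with 0 past the thresholds in any comparison.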
